A study of Homo sapiens with 4 samples.

Results

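The genes described here encode regulators that switch NF-κB signalling on and off through ubiquitin: the A20 gene TNFAIP3 and the genes of its binding partners TNIP1 and TNIP2, the deubiquitinase gene CYLD, the cIAP genes BIRC2 and BIRC3, and the TRAF adaptor genes TRAF1, TRAF2, TRAF3 and TRAF6. They were read from every probe set whose single gene symbol in the platform annotation was one of these 10 names. This gave 21 probe sets of 8 genes, out of 54675 probe sets on the array. BIRC3 and TRAF2 had no probe set under this rule and their expression is not analysed here. Of the 21 probe sets, 20 reached the filter described below, and all 8 genes had at least 1 that did.

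The cells were Jurkat, an established human T cell leukaemia line. One line, called shIKKE here, carried a hairpin RNA that targets IKKε, and the other carried what the series text calls a control hairpin and the sample titles call a vector (the control line). Each line was given either PMA at 10 ng/ml with ionomycin at 0.5 uM, or solvent, for 3 h; PMA activates protein kinase C and ionomycin raises intracellular calcium. There were thus 4 groups of 1 array each: shIKKE stimulated, shIKKE solvent, control stimulated and control solvent. Whether a line was a clone or a pool, and whether the arrays came from separate cultures, is not stated in the labels. Differences between single arrays therefore carry no replicate error and no p-value, and are given as values.

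NF-κB is held in the cytoplasm until the IKK complex is activated, and in T cells protein kinase C signals to IKK through BCL10 and MALT1. TRAF6 and, downstream of TNF receptors, TRAF2 with the cIAP ubiquitin ligases build ubiquitin chains that recruit IKK and its upstream kinase TAK1. A20 and CYLD act against such chains, and TNIP1 and TNIP2 (ABIN-1 and ABIN-2) are ubiquitin-binding partners of A20. TRAF3, together with TRAF2 and the cIAPs, keeps the kinase NIK low and so restrains the non-canonical pathway. TNFAIP3, TRAF1 and BIRC3 are themselves well known NF-κB target genes, which makes A20 a feedback inhibitor.

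RefSeq promoter windows (build GRCh38.p14) reach from 250 bases before an annotated start to 50 after it. All 10 genes matched by symbol, with 16 windows in all. Both strands were searched for the 10-base NF-κB consensus and for the AP-1 motif TGANTCA. The consensus was present in 6 of the 16 windows, and in 11.3% of all 35116 windows. By gene, 5 of the 10 had it in at least 1 window, and 3619 of all 27305 genes did. Windows of a gene can overlap, as CYLD windows 1 and 2 do, so windows are not independent counts. No member window held TGANTCA, which was present in 7.71% of all windows. A match describes letters only and does not show binding. The windows below belong to genes whose signals are contrasted in what follows, and capitals mark matches to the NF-κB consensus on either strand. TNFAIP3 (chr6:137867009-137867308, plus strand) held 2 matches, TRAF3 (chr14:102777199-102777498, plus strand) held 1, and the upstream one of the 2 TNIP1 windows (chr5:151080985-151081284, minus strand) held 1. The most upstream of the 3 TRAF1 windows (chr9:120929122-120929421, minus strand) held none, like the other 2 TRAF1 windows.
TNFAIP3: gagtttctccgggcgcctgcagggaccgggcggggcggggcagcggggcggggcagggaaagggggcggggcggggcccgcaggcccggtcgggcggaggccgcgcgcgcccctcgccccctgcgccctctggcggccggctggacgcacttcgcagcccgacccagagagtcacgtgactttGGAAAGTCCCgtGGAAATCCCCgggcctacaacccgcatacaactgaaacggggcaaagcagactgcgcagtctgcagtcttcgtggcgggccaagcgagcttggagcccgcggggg
TRAF3: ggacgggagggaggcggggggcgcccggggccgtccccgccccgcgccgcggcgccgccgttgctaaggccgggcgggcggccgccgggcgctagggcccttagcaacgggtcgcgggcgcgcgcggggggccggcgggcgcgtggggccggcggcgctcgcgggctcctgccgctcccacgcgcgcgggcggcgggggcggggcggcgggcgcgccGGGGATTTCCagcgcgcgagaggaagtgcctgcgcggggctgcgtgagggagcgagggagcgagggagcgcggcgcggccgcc
TNIP1: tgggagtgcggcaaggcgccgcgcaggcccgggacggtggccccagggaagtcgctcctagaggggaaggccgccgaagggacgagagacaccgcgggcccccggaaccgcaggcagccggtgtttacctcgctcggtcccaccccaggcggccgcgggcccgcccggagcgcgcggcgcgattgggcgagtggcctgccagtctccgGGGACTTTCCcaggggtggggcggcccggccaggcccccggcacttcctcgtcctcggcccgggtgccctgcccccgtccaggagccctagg
TRAF1: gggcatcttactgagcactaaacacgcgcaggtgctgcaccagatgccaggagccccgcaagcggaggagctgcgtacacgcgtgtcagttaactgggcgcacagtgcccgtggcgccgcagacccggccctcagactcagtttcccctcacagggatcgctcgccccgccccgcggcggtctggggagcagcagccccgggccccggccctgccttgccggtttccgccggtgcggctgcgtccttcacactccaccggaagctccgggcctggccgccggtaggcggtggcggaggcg

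**Figure D1:**
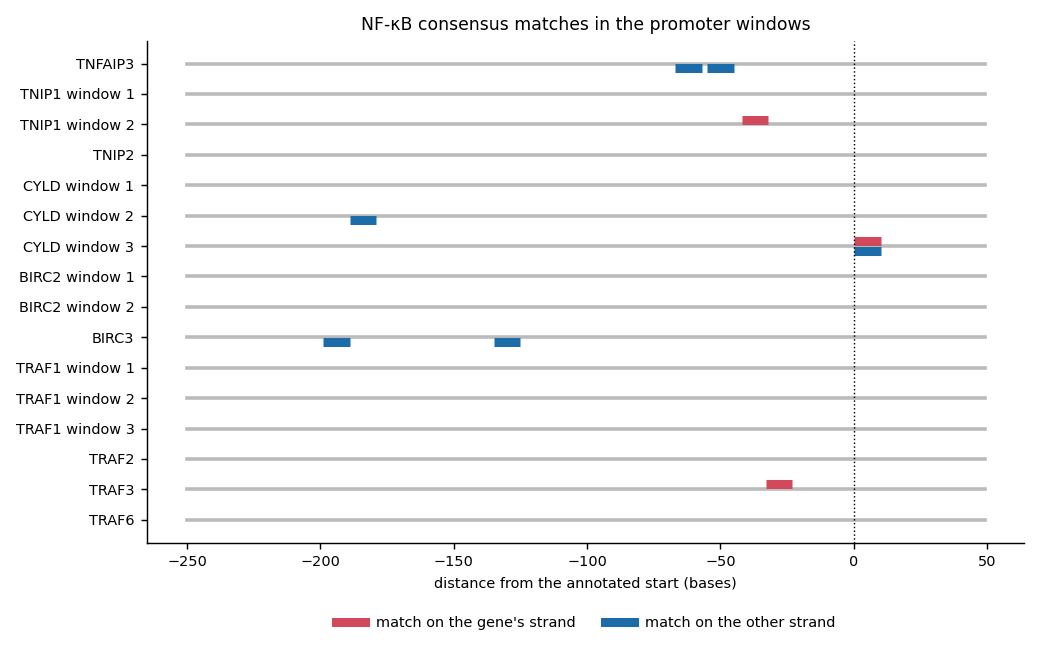
Positions of NF-κB consensus matches (coloured blocks, by strand) in the 16 promoter windows of the 10 genes, with the distance from the annotated start in bases on the horizontal axis and 1 window per row. TNFAIP3 has 2 matches between 67 and 46 bases before its start, and the 3 TRAF1 windows have none; the overlapping pair in the third CYLD window is 1 site that reads as the consensus on both strands.

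The signals are MAS5 values on a linear scale. Log2 changes are of the signal plus 14.1, which understates changes of dim probe sets, and a gene was called where the change was at least 2-fold. Calls were counted over 13717 genes with a probe set that reached 56.4, the median signal, on at least 1 array; each gene was represented by its brightest such probe set. The median signal was 69.1 and 49.7 on the stimulated and solvent shIKKE arrays, and 59.8 and 48.8 on the stimulated and solvent control arrays. The targeted gene IKBKE read 248 and 180 on the stimulated and solvent shIKKE arrays by its brighter probe set, against 520 and 340 on the stimulated and solvent control arrays. Its other probe set read 280 and 287 in the shIKKE line, against 311 and 218 in the control line, and so was higher in the shIKKE line with solvent. All 10 T cell markers read above the median signal on every array, and their summed signal lay between 71270 and 78619. Of these, CD2 was the only one 2-fold different between the lines, lower in the shIKKE line with solvent (log2 -1.95) and with stimulation (-1.08). The summed signals of the B cell, myeloid, natural killer, and erythroid and epithelial marker lists lay between 88.4 and 584. In the B cell, natural killer, and erythroid and epithelial lists, 1 marker each also reached the median signal on every array. No myeloid marker did. The ACTB 5′ to 3′ ratio, a measure of RNA and labelling quality, was 0.266 and 0.339 on the stimulated and solvent shIKKE arrays, and 0.401 and 0.244 on the stimulated and solvent control arrays; its part in the results was not tested. In RNA from whole cultures, fewer cells expressing a gene and less RNA per cell cannot be told apart.

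TNFAIP3, which encodes A20, had higher signals with stimulation in both lines and its lowest signal in resting shIKKE cells. Its brighter probe set, 202644_s_at, read 3444 in stimulated and 929.7 in solvent shIKKE cells, a log2 change of 1.87, or 3.66-fold. In the control line it read 4514 with stimulation and 2675 with solvent, a log2 change of 0.75, or 1.68-fold. The solvent shIKKE array was thus the low one, and the other 3 arrays lay within a narrower span. The second probe set, 202643_s_at, read 1163 and 242.7 in stimulated and solvent shIKKE cells, with a log2 change of 2.20. It read 1665 and 907.5 in stimulated and solvent control cells, with a log2 change of 0.87. Both TNFAIP3 probe sets therefore gave the same order of the 4 arrays. Between the lines, the brighter TNFAIP3 probe set had a log2 difference of -0.39 with stimulation, within 2-fold, and of -1.51 with solvent, 2.85-fold lower in the shIKKE line. For the second probe set these differences were -0.51 and -1.84.

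The A20-binding partners had changes within 2-fold by their brightest probe sets. TNIP1, by probe set 207196_s_at, read 998.9 in stimulated and 863.5 in solvent shIKKE cells (log2 0.21), against 844.8 in stimulated and 1165 in solvent control cells (log2 -0.46). The response was thus upward in one line and downward in the other, each within 2-fold. The other TNIP1 probe set, 243423_at, never exceeded 62.1, and its log2 changes of 1.80 in the shIKKE line and -1.10 in the control line are between signals of 7.75 and 62.1, where MAS5 values spread widely. TNIP2, by probe set 218335_x_at, read 1732 and 1837 in stimulated and solvent shIKKE cells (log2 -0.08), and 1726 and 1244 in stimulated and solvent control cells (log2 0.47). Across its 3 probe sets, the changes with stimulation ran from -0.31 to 0.09 in the shIKKE line and from 0.28 to 0.47 in the control line. With solvent all 3 were slightly higher in the shIKKE line, with log2 differences between 0.40 and 0.56. An _x_at suffix marks probes that may also match other transcripts.

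CYLD, the deubiquitinase gene, was lowest in resting shIKKE cells by its brightest probe set, as TNFAIP3 was, but unlike TNFAIP3 it was not higher with stimulation in the control line. Probe set 213295_at read 570.1 in stimulated and 311 in solvent shIKKE cells, a log2 change of 0.84. It read 665.9 in stimulated and 751.7 in solvent control cells, a log2 change of -0.17. The line difference was -0.22 with stimulation and -1.23 with solvent, 2.35-fold lower in the shIKKE line. Of the 6 CYLD probe sets past the filter, all 6 were lower in the shIKKE line with solvent, 4 of them at least 2-fold, with log2 differences from -1.23 to -0.12 and a median of -1.07. With stimulation the same 6 ran from -0.22 to 1.21, with a median of 0.13. Probe set 221903_s_at, the next in mean signal, gave a smaller difference. It read 551 and 502.7 in stimulated and solvent shIKKE cells, and 527.7 and 611.2 in stimulated and solvent control cells, a log2 line difference of -0.27 with solvent. Probe sets 214272_at and 60084_at never exceeded 68.2, and 222142_at, which stayed under the filter, never exceeded 51.3. The filter was passed by 60084_at through the solvent control array alone (56.4), and by 214272_at through the solvent control and stimulated shIKKE arrays alone. The size of the CYLD difference at rest thus depends on the probe set. Its direction was the same in all 6, of which 60084_at could not have gone the other way and passed the filter.

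BIRC2, which encodes cIAP1, had the smallest range of all 8 genes over the 4 arrays. Its single probe set, 202076_at, read 5016 in stimulated and 4477 in solvent shIKKE cells (log2 0.16), and 4854 in stimulated and 4679 in solvent control cells (log2 0.05). The highest array was 1.12 times the lowest. The largest of its log2 differences in the 4 comparisons was 0.16.

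TRAF1, an adaptor that binds TRAF2 and the cIAPs, had the largest response of the 8 genes by their brightest probe sets. By probe set 205599_at it read 428.7 in stimulated and 67.2 in solvent shIKKE cells, a log2 change of 2.45, or 5.45-fold. It read 228.6 in stimulated and 99 in solvent control cells, a log2 change of 1.10, or 2.15-fold. Both stimulated arrays lay above both solvent arrays. The second probe set, 235116_at, read 137.4 and 36 in stimulated and solvent shIKKE cells, with a log2 change of 1.60. It read 141.9 and 24.3 in stimulated and solvent control cells, with a log2 change of 2.02. The 2 TRAF1 probe sets thus shared the direction in both lines and differed in which line had the larger response. With the median of a gene's probe sets, the log2 response in the shIKKE line was 2.02 for TRAF1 and 2.04 for TNFAIP3, so the ranking there did not hold. The call in the control line was lost after quantile normalization (log2 0.82), after cyclic loess (log2 0.98) and with a pseudocount of 56.4 (log2 0.88).

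TRAF3, the adaptor that restrains NIK, was higher with stimulation by both probe sets in both lines. Probe set 221571_at read 2971 in stimulated and 1963 in solvent shIKKE cells (log2 0.59, or 1.51-fold), and 4368 in stimulated and 2059 in solvent control cells (log2 1.08, or 2.11-fold). By this probe set the line difference was -0.07 with solvent and -0.55 with stimulation on the log2 scale. Probe set 208315_x_at gave stimulation changes of 0.78 in the shIKKE line, where it read 685.9 with stimulation and 392.2 with solvent. The change was 1.16 in the control line, where it read 586.7 with stimulation and 255.1 with solvent. Its line differences were upward, 0.59 with solvent and 0.22 with stimulation, so the probe sets differ in direction between the lines. TRAF3 was the one member besides TNIP2 whose response was smaller in the shIKKE line by every probe set, a difference that was not tested.

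TRAF6, the ubiquitin ligase used by Toll-like and interleukin 1 receptors, and in T cells with MALT1, had slightly lower signals with stimulation. Probe set 227264_at read 298.9 in stimulated and 390.9 in solvent shIKKE cells (log2 -0.37), and 416.4 in stimulated and 555.9 in solvent control cells (log2 -0.40). It was lower in the shIKKE line by -0.46 with stimulation and by -0.49 with solvent. The second probe set, 205558_at, had stimulation changes of -0.29 in the shIKKE line and -0.65 in the control line. All these values lie within 2-fold.

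**Figure D2:**
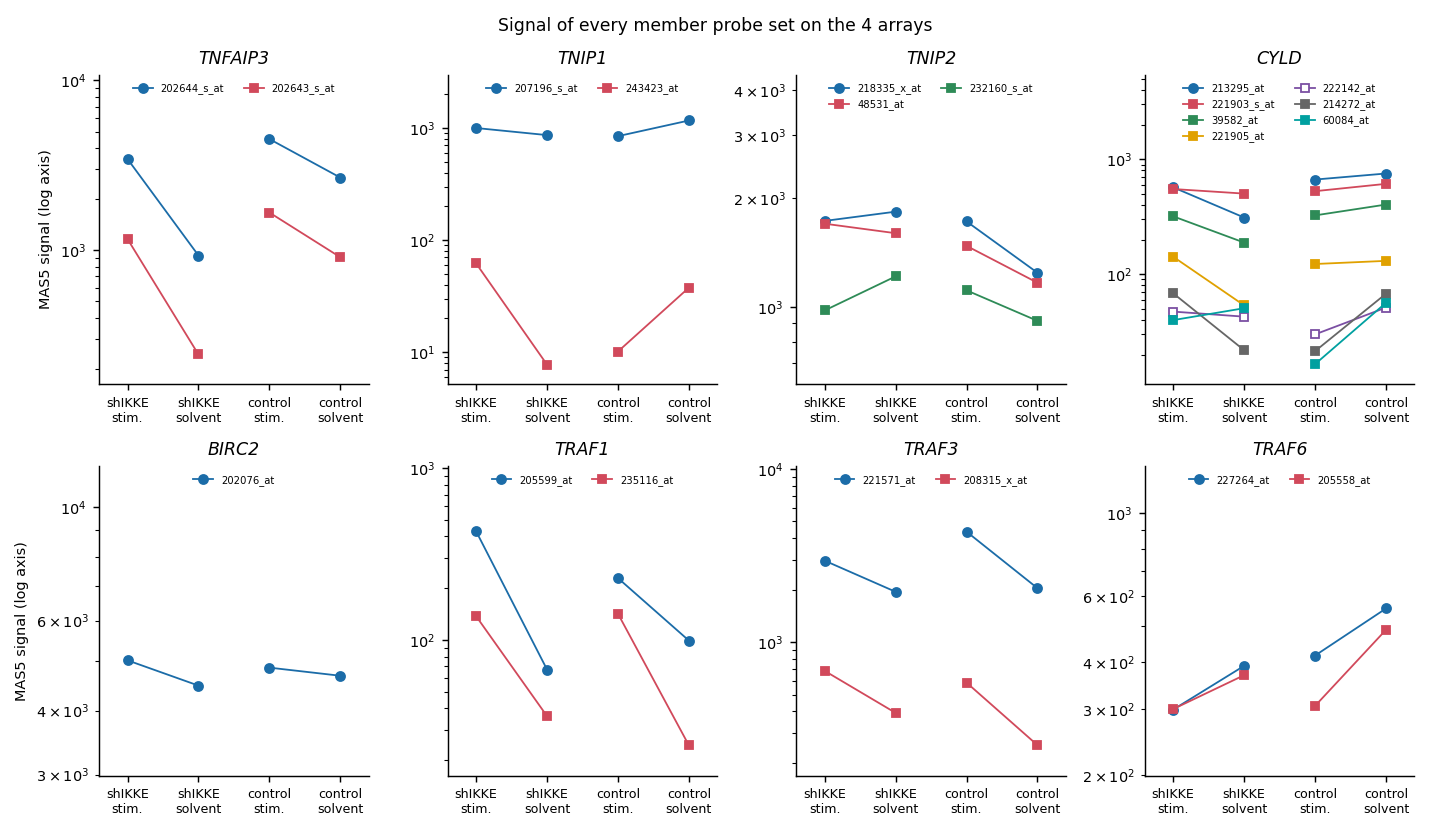
MAS5 signal (log axis) of each of the 21 probe sets on the 4 arrays, 1 panel per gene, with lines joining the stimulated and solvent arrays of a line; circles mark the probe set that represents the gene and the open symbol the probe set under the filter. TNFAIP3, TRAF1 and TRAF3 slope down from stimulated to solvent in both lines, BIRC2 is nearly flat, and the main CYLD probe set is low on the solvent shIKKE array at 311.

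Counted over genes, 2 of the 8 members, TRAF1 and TNFAIP3, were called higher with stimulation in the shIKKE line, where 10.3% of all genes were called higher, and none lower, where 2.68% were. In the control line 2 of 8 were higher, TRAF1 and TRAF3, against 7.57% of all genes, and none lower, against 6.44%. TRAF1 was the single member called higher in both lines, as were 3.29% of all genes. The members' median log2 change was 0.40 in the shIKKE line and 0.26 in the control line, beside -0.01 in the shIKKE line and -0.07 in the control line over all genes. Of all genes called in the shIKKE line 79.4% were higher, and 53.3% after quantile normalization; in the control line these shares were 54% and 40.6%, and for the line comparison with stimulation 71.7% and 59.3%. Counted over the 20 probe sets, which share genes and are not independent, 7 were higher and none lower in the shIKKE line, where 11.4% and 3.17% of 26218 probe sets were. Of these 7, TNIP1 243423_at (62.1 stimulated, 7.75 solvent) and CYLD 214272_at (68.2 stimulated, 21.8 solvent) are dim, and 243423_at passed the filter through the stimulated shIKKE array alone. In the control line 4 were higher and 3 lower, against 10.1% and 6.38%. The 3 lower ones are dim probe sets of TNIP1 and CYLD that never exceeded 68.2. Of these, CYLD 60084_at passed the filter through the solvent control array alone, so its direction was fixed by the filter.

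Between the lines, no member was 2-fold different with stimulation, against 5.99% of all genes called higher and 2.37% called lower in the shIKKE line, and the members' median was -0.11. With solvent, 2 of 8 were called lower in shIKKE cells, TNFAIP3 and CYLD, against 6.68% of all genes, and none was called higher, against 4.34%. The members' median with solvent was -0.45, beside -0.05 over all genes. By their brightest probe sets 7 of 8 were below 0 with solvent, beside 53.7% of all genes, but TRAF3 208315_x_at (0.59) and TRAF1 235116_at (0.38) were above 0. Over the 20 probe sets, 2 were higher and none lower with stimulation, against 5.65% and 2.73% of all probe sets. Both are the dim ones, TNIP1 243423_at (62.1 in shIKKE cells, 10.1 in control cells) and CYLD 214272_at (68.2 in shIKKE cells, 21.4 in control cells). As 243423_at passed the filter through the stimulated shIKKE array alone, its direction with stimulation was fixed by the filter. With solvent none was higher and 7 were lower, against 5.26% and 6.4%, and the 7 include the same dim probe sets, 243423_at (7.75 in shIKKE cells, 37.7 in control cells) and 214272_at (21.8 in shIKKE cells, 67.7 in control cells). The CYLD call at rest was kept with the median of its probe sets (-1.07) and lost with a pseudocount of 1 (-0.28), where 221903_s_at represents the gene.

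The solvent array of each line enters both the line comparison at rest and the stimulation response of that line. For TNFAIP3 and CYLD the low array was that of solvent shIKKE cells. Their difference at rest, shIKKE response and difference of responses all include this array and are not separate results. The immediate early gene EGR1, chosen here after its values were seen, read 1035 on the solvent shIKKE array, against 9953 on the solvent control array. With stimulation it read 18503 in shIKKE cells and 23198 in control cells. FOSB, another immediate early gene chosen the same way, read 7.38 on the solvent shIKKE array, against 1364 on the solvent control array, and 302 on the stimulated shIKKE array, against 272 on the stimulated control array. Their part in the TNFAIP3 and CYLD values was not tested. With the solvent arrays exchanged between the lines as baselines, the stimulated shIKKE array had 1 member called higher, TRAF1, and TNFAIP3 had a log2 change of 0.36. The stimulated control array then had 4 members called higher: TRAF1, TRAF3, TNFAIP3 (log2 2.26) and CYLD (log2 1.06). Such values include the difference between the lines.

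**Figure D3:**
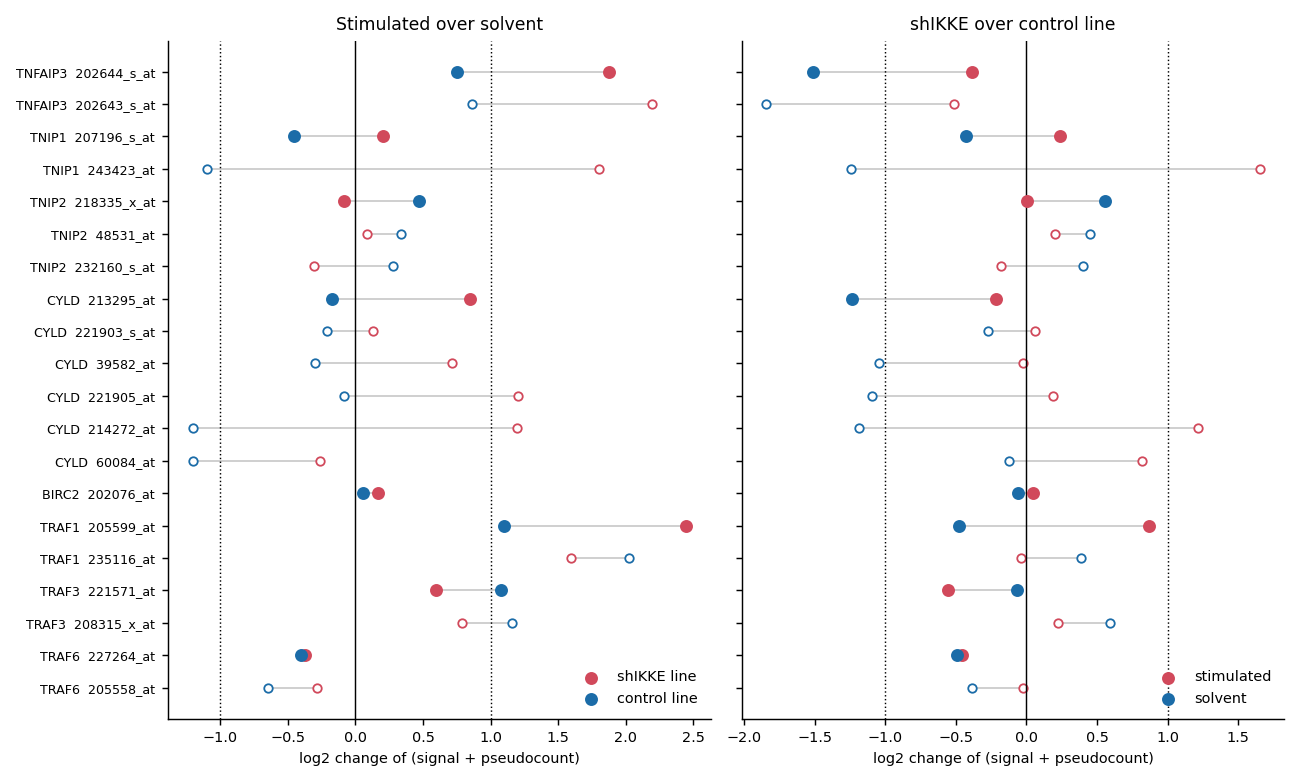
Log2 change of each of the 20 probe sets past the filter, for stimulated over solvent (left: shIKKE line red, control line blue) and for shIKKE over control (right: stimulated red, solvent blue); filled points represent the gene, and dotted lines mark 2-fold. In the right panel, both TNFAIP3 probe sets, 4 CYLD probe sets and TNIP1 243423_at lie beyond 2-fold lower with solvent, and none of the 20 does with stimulation. In the left panel, 3 dim probe sets of TNIP1 and CYLD lie beyond 2-fold lower in the control line, and none does in the shIKKE line.

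The responses of the lines differed by at least 2-fold in 3 of the 8 members, all larger in the shIKKE line, where 11.4% of all genes were so and 4.67% were smaller. These were TRAF1 (difference of log2 responses 1.34), TNFAIP3 (1.12) and CYLD (1.02). For the second TRAF1 probe set the difference was -0.42, and with the median of its probe sets TRAF1 had 0.46. CYLD fell under 2-fold with a pseudocount of 1 (0.34), where 221903_s_at represents it, with a pseudocount of 56.4 (0.93), after quantile normalization (0.93) and after cyclic loess (0.99). TNIP1 passed 2-fold with the median of its probe sets (1.78), one of which is dim. By their brightest probe sets, TNFAIP3 and CYLD had their difference mainly at rest: for each, the stimulated arrays of the lines lay within 0.39 of each other on the log2 scale. The second TNFAIP3 probe set had a line difference of -0.51 with stimulation, and the 6 CYLD probe sets ran from -0.22 to 1.21.

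**Figure D4:**
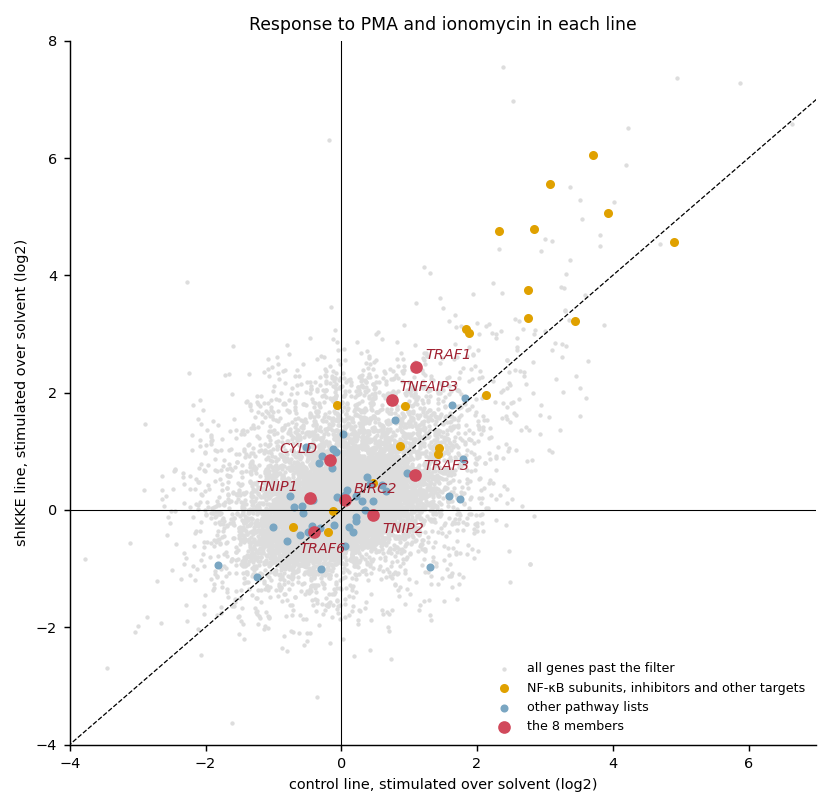
Log2 response to stimulation in the shIKKE line (vertical) against that in the control line (horizontal) for the 8 members (red), the genes of the pathway lists (blue and yellow) and all 13717 genes (grey); the dashed line marks equal responses. TRAF1, TNFAIP3 and CYLD lie above the dashed line and TRAF3 and TNIP2 below it.

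The effects averaged over both lines or both treatments were fitted over all 4 arrays with limma, in a model of line plus stimulation that leaves 1 residual degree of freedom, namely the difference between the lines' responses. No member passed an adjusted p of 0.05 for stimulation, where 0.00729% of all genes did, and 3 of 8 had an unadjusted p under 0.05, beside 13.8% of all genes. TRAF1 had an average log2 change of 1.77 ± 0.40 (SE; limma adjusted p = 0.195). TNFAIP3 had 1.31 ± 0.36 (SE; limma adjusted p = 0.25), and TRAF3 had 0.84 ± 0.27 (SE; limma adjusted p = 0.312). With a pseudocount of 56.4, TRAF1 (limma adjusted p = 0.00721) and TNFAIP3 (0.0146) passed, and over the alternatives run the lowest adjusted p of any member ranged from 3.79e-07 to 0.345. For the line, no member and 0% of all genes passed, and 1 of 8 members, TNFAIP3, had an unadjusted p under 0.05, beside 7.29% of all genes. TNFAIP3 had an average line effect of -0.95 ± 0.36 (SE; limma adjusted p = 0.677). With a variance prior that follows the level it passed (limma adjusted p = 0.00317), and over the alternatives run the lowest adjusted p of any member for the line ranged from 0.00317 to 0.794.

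Related genes of the same pathway were grouped into 8 lists. Among 7 measured partners of A20 and CYLD and related deubiquitinases, none was 2-fold different in any of the 4 comparisons. The shares of all genes called higher or lower in a comparison ran from 2.37% to 10.3%. TAX1BP1, an A20 adaptor, read 3434 and 2959 in stimulated and solvent shIKKE cells, and 3863 and 4029 in stimulated and solvent control cells. ITCH, a ubiquitin ligase of the A20 complex, had stimulation changes of 0.26 in the shIKKE line and 0.06 in the control line. The list's median was 0.16 in the shIKKE line and -0.31 in the control line.

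Among 6 measured genes of the linear ubiquitin ligase LUBAC and the TNF receptor 1 complex, none was 2-fold different with stimulation in the shIKKE line. Of all genes 10.3% were higher there and 2.68% lower. With stimulation in the control line none was higher, against 7.57% of all genes, and 2 were lower, against 6.44%. These were the LUBAC subunit genes RNF31 (log2 -1.82) and RBCK1 (log2 -1.01). RBCK1 read 3052 and 3740 in stimulated and solvent shIKKE cells, against 3397 and 6859 in stimulated and solvent control cells. The RNF31 probe set is dim on the stimulated control array, at 56.2. The list's median with stimulation was -0.33 in the shIKKE line and -0.68 in the control line.

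Among 11 other TRAF and IAP genes and TRAF adaptors, 2 were called higher with stimulation in the shIKKE line, against 10.3% of all genes. In the control line 1 was, against 7.57%. TRAF4 was higher in both lines. It read 3302 and 864.1 in stimulated and solvent shIKKE cells (log2 1.92), and 4006 and 1127 in stimulated and solvent control cells (log2 1.82). TANK, an adaptor that binds TRAFs and TBK1, was called higher in the shIKKE line (log2 1.29) and read a change of 0.03 in the control line. XIAP, the caspase inhibitor, had changes of 0.63 in the shIKKE line and 0.96 in the control line, within 2-fold. With solvent, TRAF3IP2, which encodes the IL-17 receptor adaptor Act1, was 2-fold higher in the shIKKE line (1475 against 544.5 in the control line, log2 1.41). Of the 11 it was the only call with solvent, where 4.34% of all genes were higher and 6.68% lower.

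Among 10 kinase genes of the TAK1, NIK and IKK group, none was called with stimulation in the control line. Of all genes 7.57% were higher there and 6.44% lower. In the shIKKE line 1 was called higher, against 10.3% of all genes: MAP3K14, which encodes NIK. It read 537.9 and 176.5 in stimulated and solvent shIKKE cells (log2 1.53), and 397 and 224.1 in stimulated and solvent control cells (log2 0.79). Between the lines the one call was IKBKE itself, lower with stimulation (log2 -1.03), as were 2.37% of all genes. In a list of BCL10, MALT1 and PRKCQ, BCL10 was higher with stimulation in the shIKKE line (log2 1.03) and not in the control line (log2 -0.12). PRKCQ, which encodes protein kinase C theta, was lower in both lines (log2 -1.15 in the shIKKE line and -1.24 in the control line), and MALT1 had changes of 0.44 in the shIKKE line and 0.42 in the control line.

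Of 9 measured NF-κB subunit and inhibitor genes, 6 were called higher with stimulation in the shIKKE line (median log2 change 1.77), against 10.3% of all genes, and 5 in the control line (median 1.42), against 7.57%. RELA, the main activating subunit, had changes of -0.01 in the shIKKE line and -0.13 in the control line, and NFKBIB had 0.47 in both. NFKBIZ, among the 6, is dim (138 and 30.5 in stimulated and solvent shIKKE cells, 57.1 and 23.0 in stimulated and solvent control cells) and passed the filter through the stimulated arrays alone. The list's median of 1.77 in the shIKKE line is the NFKBIZ change itself. RELB had log2 changes of 3.23 in the shIKKE line and 3.45 in the control line, and NFKB1 of 1.96 in the shIKKE line and 2.14 in the control line. Of 12 other NF-κB target genes, 10 were higher in the shIKKE line (median 4.16), against 10.3% of all genes, and 9 in the control line (median 2.75), against 7.57%. Among those counted, BCL2A1, IL2RA and CXCL8 passed the filter through the stimulated arrays alone, so the filter itself selected for their upward direction. Their solvent signals were 26.9, 45.4 and 39 in shIKKE cells, and 51.6, 26.5 and 1.83 in control cells, in that order. With solvent 3 of these 12 targets were lower in the shIKKE line, against 6.68% of all genes: IER3 (log2 -2.53), GADD45B (-1.44) and LTA (-1.22). LTA is dim there, at 16.7 in shIKKE cells and 57.7 in control cells. CXCL8 was higher (1.74), against 4.34% of all genes, with dim signals of 39 in shIKKE cells and 1.83 in control cells. With stimulation 5 of the 12 were higher in the shIKKE line, against 5.99% of all genes, and none was lower, against 2.37%. REL, which encodes the c-Rel subunit, was also lower with solvent (652.9 in shIKKE cells against 1478 in control cells, log2 -1.16). NFKBIA was not called there (log2 -0.38).

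Of 9 measured genes of TNF receptors that bind TRAFs directly or through an adaptor, 5 were 2-fold different between the lines at rest. Of these, 4 were higher in the shIKKE line, where 4.34% of all genes were, and 1 was lower, where 6.68% were. With stimulation 2 of 9 were higher in the shIKKE line, TNFRSF1A (log2 1.78) and CD27 (1.07), against 10.3% of all genes, and 5 of 9 in the control line, against 7.57%, led by TNFRSF4 (1.80) and TNFRSF8 (1.76). The 4 higher with solvent were TNFRSF8, which read 889.9 in shIKKE cells against 275.8 in control cells, TNFRSF4, which read 490.8 against 162.9, and the dim LTBR and TNFRSF18, which are also among the 5 called in the control line. LTBR read 22.4 and 57.3 in stimulated and solvent shIKKE cells, and 43.1 and 8.99 in stimulated and solvent control cells, and passed the filter through the solvent shIKKE array alone. TNFRSF18 read 84.8 and 69.3 in stimulated and solvent shIKKE cells, and 84.8 and 18.8 in stimulated and solvent control cells. CD27 was lower (192.6 in shIKKE cells against 446.2 in control cells). TNFRSF1A, the main receptor for soluble TNF, read 911.7 in shIKKE and 1258 in control cells with solvent, within 2-fold.

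**Figure D5:**
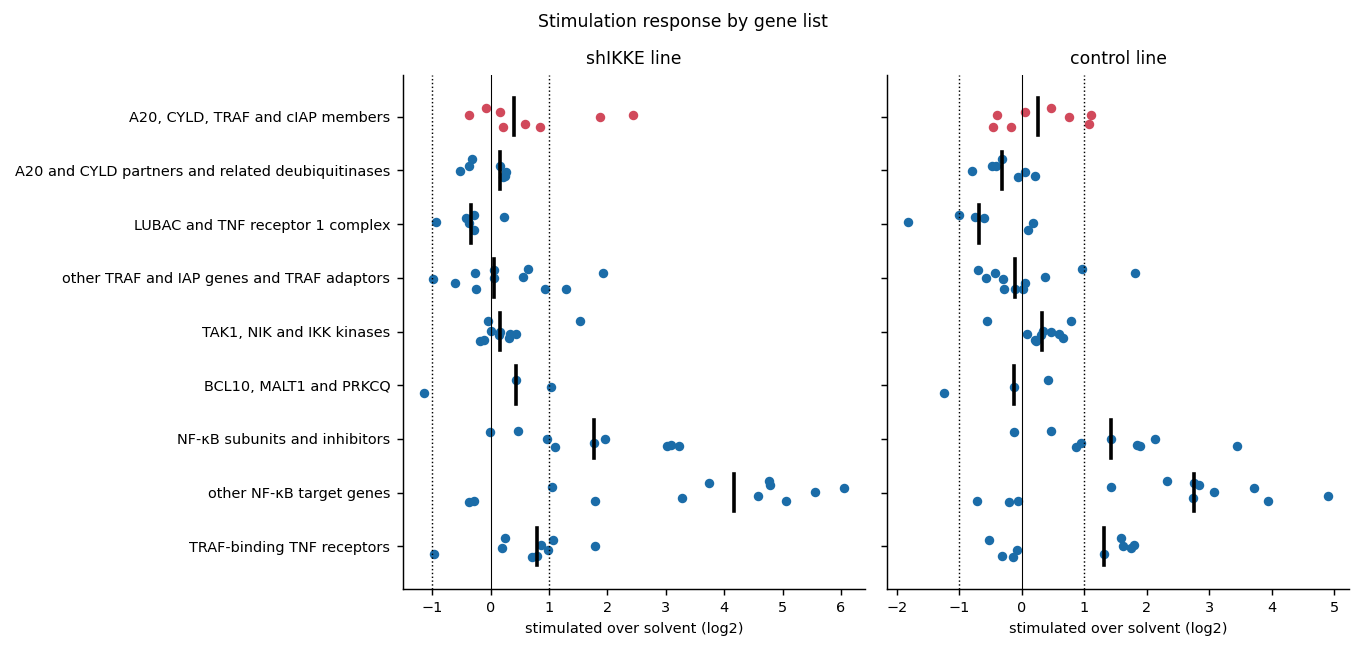
Log2 change with stimulation of each measured gene in the members' group (red) and in 8 pathway lists (blue), with the shIKKE line on the left and the control line on the right; black bars are medians and dotted lines mark 2-fold. The members' medians, 0.40 in the shIKKE line and 0.26 in the control line, lie below those of the NF-κB subunits and inhibitors, 1.77 and 1.42. The 1.77 is the change of NFKBIZ, a dim gene that passed the filter through the stimulated arrays alone.

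The genes nearest in pattern were sought for the 3 members with the largest range over the 4 arrays, by the Euclidean distance between log2 values centred on each gene's mean. With 4 arrays this picks the closest of 13717 genes and says nothing of their function. For TNFAIP3 they were FAM50B (distance 0.10), MYO15B, LINC00674, LOC105375527 and DDR2 (0.19). For CYLD they were LOC102723701 (0.09), LINC01560, KLHDC1, HLA-E and IPMK (0.14), of which HLA-E read 1877 and 1060.1 in stimulated and solvent shIKKE cells, and 2295 and 2750 in stimulated and solvent control cells. For TRAF1 they were LOC285097 (0.15), EOGT, OR52K3P, KIAA0754 and TGFBR3 (0.21). None of these 15 was a member or a gene of the NF-κB lists.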

How the data were processed

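Biotin-labelled cRNA from 6 ug of total RNA was hybridised to 1 array per sample, per the labels' protocols. The deposited values are 1 intensity per probe set, a linear MAS5 signal, per the submitters' processing notes; the MAS5 version is not given in the sources used here. The mean trimmed by 2% at each end was 500.1 on all 4 arrays, so they had been scaled to one target, which leaves dim signals free to differ. The number of arrays limits the precision, and no detection calls were used. Of the table's columns, 0 were left out.

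Probe sets were named from the platform annotation; 41091 had 1 symbol, and 62 array controls were left out. The 8 measured members matched the RefSeq gene table by gene ID. Values were log2 of the signal plus 14.1, the 25th percentile of all signals. The filter kept 26218 probe sets of 13717 genes. Single-array differences have no test, and the call was 2-fold. Average effects were fitted over all 13717 genes with limma 3.58.1 in R 4.3.3 (lmFit, eBayes, two-sided, Benjamini-Hochberg adjusted p at most 0.05). The fit was also run on simulated arrays in which both lines had the same stimulation effect. That run does not test the fit where the lines' responses differ. Other steps used Python 3.11.15, pandas 2.3.3, numpy 2.4.6 and matplotlib 3.10.9.

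Members, lists and alternatives were chosen with earlier results of these data known. From each list, up to 4 members called in a comparison could be named; TAX1BP1, ITCH, XIAP, MALT1, TNFRSF1A with solvent and NFKBIA, not called there, were named after their values were seen, and so were EGR1, FOSB, RELA, NFKBIB, LTBR and TNFRSF18. The 5 nearest genes were named for each of 3 members. A further listed gene is not reported here. Alternatives were pseudocounts of 1 and 56.4, no filter, quantile normalization, cyclic loess, the median of a gene's probe sets, exchanged solvent baselines, a fit over probe sets and a variance prior that follows the level.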

Additional observations from a re-analysis of the deposited data

Results flagged for a closer look

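The log2 responses to stimulation had opposite signs in the lines for 3 members, and these differences were not tested, since each line has 1 array per treatment. CYLD had a change of 0.84 in the shIKKE line and -0.17 in the control line, a difference of 1.02. TNIP1 had changes of 0.21 in the shIKKE line and -0.46 in the control line, a difference of 0.66. TNIP2 had changes of -0.08 in the shIKKE line and 0.47 in the control line, a difference of -0.55. These values are of the brightest probe set of each gene, and all 6 lie within 2-fold. Taking the median over a gene's probe sets instead, the TNIP2 response in the shIKKE line is 0.09, so that its signs no longer differ, and the TNIP1 response in the shIKKE line is 1.005, past 2-fold, with 1 of its 2 probe sets dim.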

How the results depend on the processing

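Beyond the line term of the limma fit, no paired analysis was possible because each group has 1 array and the labels carry no replicate numbers. Of 208 recomputed log2 changes of single members, none that was called at 2-fold changed sign, and 11 moved by over 1.5-fold or crossed 2-fold. The count of 2 members called with stimulation in the control line became 1 with a pseudocount of 56.4, with quantile normalization and with cyclic loess, TRAF1 falling under 2-fold, and 4 with the other line's solvent array as baseline. The count of 2 in the shIKKE line became 1 with that exchanged baseline and stayed between 2 and 3 under the other alternatives. The count of 2 members lower in the shIKKE line with solvent became 1 with a pseudocount of 1, because another probe set then represents CYLD. The count of 0 with stimulation between the lines was 0 under all 6 alternatives run. The limma count of 0 members for stimulation became 2 with a pseudocount of 56.4 and 3 with a variance prior that follows the level, and that of 0 for the line became 1 with that prior; the prior takes the error from other genes of like level. The causes of the other moves were not tested. After quantile normalization, 908 genes were higher and 794 lower with stimulation in the shIKKE line, against 1417 and 368 as deposited.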
